A study of Mus musculus with 13 samples.

Results

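Liver endothelial cells of mice with and without a microbiota were followed here for 10 enzymes that build, lengthen and desaturate fatty acids. The genes were Acly, Acaca, Fasn, Me1, Elovl6, Elovl5, Scd1, Scd2, Fads1 and Fads2. They were chosen by their place in the pathway, with earlier results of these data known. They are 10 of the 24421 gene symbols in the count table. The study compared wild-type mice that were conventionally raised (CONV-R, 7 libraries, numbered 1 to 7) with wild-type germ-free mice (GF, 6 libraries, numbered 8 to 13), which are raised without microbes. Both groups carry the same cell type and genotype labels. The labels give no age, sex or cell isolation and do not say whether a library is 1 animal, so every p-value reflects only how much these libraries spread, which may be technical.

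Fatty acid synthesis starts from citrate, which Acly splits in the cytosol to give acetyl-CoA. Acaca carboxylates acetyl-CoA to malonyl-CoA, the committed step, and Fasn joins malonyl units into palmitate with NADPH that Me1 helps to supply. Elovl6 lengthens palmitate, and the desaturases Scd1 and Scd2 place the first double bond to make monounsaturated fatty acids. Fads1 and Fads2 desaturate, and Elovl5 lengthens, the dietary polyunsaturated fatty acids. In the liver the pathway is best known in hepatocytes, where the transcription factors Srebf1 and Mlxipl and the nuclear receptor Nr1h3 drive it.

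In germ-free libraries 4 of the 10 genes were lower (Scd1, Fasn, Elovl6 and Acaca), 1 was higher (Elovl5) and 5 did not pass the test, by edgeR's quasi-likelihood test with Benjamini-Hochberg adjustment over the 13915 genes tested. Over all tested genes 12.7% were lower and 11.4% higher, 24.1% in either direction. The median log2 fold change of the 10 genes was -0.32, against -0.01 over all tested genes. All 6 GF libraries lay below all 7 CONV-R libraries for 3 of the 10 genes, against 4.32% of all tested genes, and above them for 1, against 5.94%. As the 10 genes were chosen with earlier results of these data known, these shares describe them and do not test them as a set. In these bulk libraries, fewer cells of a type that expresses a gene and less RNA per cell cannot be told apart.

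The libraries differed in the transcripts of other liver cells. Gene levels are given as CPM, counts scaled to library size with TMM factors. Marker sums are CPM of library totals, without TMM factors. The 20 hepatocyte markers summed to 1019 to 1618 CPM in the GF libraries and to 1705 to 12072 CPM in the CONV-R libraries, and 17 of the 20 were lower in GF. CONV-R libraries 1 and 7 had the highest sums, 12072 and 10415. In the same order, GF before CONV-R, neutrophil and monocyte markers summed to 134 to 259 and 316 to 2502 CPM (10 of 13 lower), Kupffer cell markers to 2445 to 4063 and 2607 to 8182 CPM (0 of 12 passed), and B and plasma cell markers to 18.8 to 34.8 and 52.7 to 1589 CPM (6 of 7 lower). The 1589 CPM was CONV-R library 1 alone, which also had the highest Scd1, Fasn, Elovl6 and Me1, and the other 6 CONV-R libraries were at 52.7 to 74.8 CPM. Of the 12 Kupffer cell markers 7 had an unadjusted p under 0.05 by edgeR, and DESeq2 called 3 lower and limma-voom 0. With CONV-R 5 to 7 only, 11 of the 12 were lower, and with CONV-R 2, 3 and 4 only, 1 was higher and the median was 0.18. Cholangiocyte markers went the other way, at 142 to 367 CPM in GF against 51.8 to 261 CPM in CONV-R, with 5 of 8 higher. CONV-R 2 and 3, at 261 and 216 CPM, lay within the GF range. The count of higher cholangiocyte markers was 6 with CONV-R 5 to 7 only and 1 with CONV-R 1 to 4 only. It was 0 with CONV-R 2, 3 and 4 only. T and NK cell markers summed to 48.0 to 178 and 48.5 to 235 CPM, and 0 of 9 passed by edgeR (2 at an unadjusted p under 0.05, and 0 called by DESeq2 or limma-voom). Stellate cell and fibroblast markers summed to 464 CPM in GF library 11, against 51.9 to 99.1 in the other GF libraries and 35.6 to 146 in CONV-R. By edgeR 1 of 10 was higher, Col1a1, named after its values were seen, and DESeq2 and limma-voom called 0. The part of these cells in the changes of the 10 genes was not tested. Adipocyte markers were near 0, at most 1.74 CPM in GF and 3.91 CPM in CONV-R, with Adipoq at or below 0.131 CPM in every library. The 16 liver endothelial markers were abundant throughout, with sums of 49106 to 51934 CPM in GF and 28387 to 48483 CPM in CONV-R, and 9 were higher in GF. Libraries held 23407168 to 35478115 counts in GF and 7590320 to 32869515 in CONV-R.

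The promoters of Fasn and Elovl6, which were lower in GF, and of Elovl5, which was higher, are printed to set genes that changed in opposite directions side by side. Each is the 250 bases before the RefSeq start site on GRCm38.p6, read 5′ to 3′ on the strand of the gene, with matches to the searched motifs in capitals. Fasn lies at chr11:120824548-120824797 (minus strand), Elovl6 at chr3:129532136-129532385 (plus strand) and Elovl5 at chr9:77917115-77917364 (plus strand).
Fasn: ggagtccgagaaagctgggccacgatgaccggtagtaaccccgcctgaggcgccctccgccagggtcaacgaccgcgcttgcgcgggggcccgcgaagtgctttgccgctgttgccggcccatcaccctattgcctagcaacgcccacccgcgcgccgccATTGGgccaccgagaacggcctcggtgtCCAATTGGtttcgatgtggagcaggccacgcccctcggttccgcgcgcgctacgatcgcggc
Elovl6: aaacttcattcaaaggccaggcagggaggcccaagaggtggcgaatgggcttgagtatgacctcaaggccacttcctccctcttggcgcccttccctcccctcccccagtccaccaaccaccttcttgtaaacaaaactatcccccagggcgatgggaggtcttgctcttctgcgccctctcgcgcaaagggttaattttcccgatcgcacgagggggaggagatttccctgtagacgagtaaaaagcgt
Elovl5: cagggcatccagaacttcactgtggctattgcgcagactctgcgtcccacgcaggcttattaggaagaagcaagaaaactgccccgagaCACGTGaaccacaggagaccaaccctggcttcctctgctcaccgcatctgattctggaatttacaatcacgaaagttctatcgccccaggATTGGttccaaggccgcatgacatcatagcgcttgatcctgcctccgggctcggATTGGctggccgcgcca
RefSeq promoters matched 7 of the 10 genes. Scd1, Scd2 and Fads1 were without one. The motifs searched, on both strands, were the sterol regulatory element TCACNCCAC (in 1.05% of 32851 promoter windows), the CCAAT box CCAAT (33.8%), the GC box GGGCGG (32.7%), the E-box CACGTG (6.02%) and the LXR half-site pair, a nuclear receptor element (0.0457%). Fasn held 3 CCAAT matches, 2 of them overlapping, Elovl5 held 2 CCAAT matches and 1 E-box, which reads the same on both strands, and Elovl6 held none. No window of the 7 genes held TCACNCCAC or the LXR half-site pair. A further pattern, TCACCCNA (3.24% of windows), was written down after the Fasn promoter had been read, so its single match there, at -128 from the start site, is by construction and is not in capitals. A match describes letters only.

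Scd1, the main liver stearoyl-CoA desaturase, had the largest decrease of the 10 genes. Its level was 407, 319, 146, 185, 172, 111 and 256 CPM in CONV-R libraries 1 to 7, and 74.0, 69.7, 68.2, 67.6, 64.4 and 76.2 CPM in GF libraries 8 to 13. The lowest CONV-R library stood above the highest GF library, and the GF values were within a narrow range while CONV-R values spread widely. The mean was 228 ± 105 CPM (SD, n = 7) in CONV-R and 70.0 ± 4.33 (SD, n = 6) in GF, a log2 fold change of -1.70 ± 0.26 (SE) by edgeR with an adjusted p of 7.89e-04, or 3.26-fold lower. Its 2 highest libraries were CONV-R 1 and 2, of which 1 had the highest hepatocyte marker sum and 2 a sum of 3731 CPM.

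**Figure D1:**
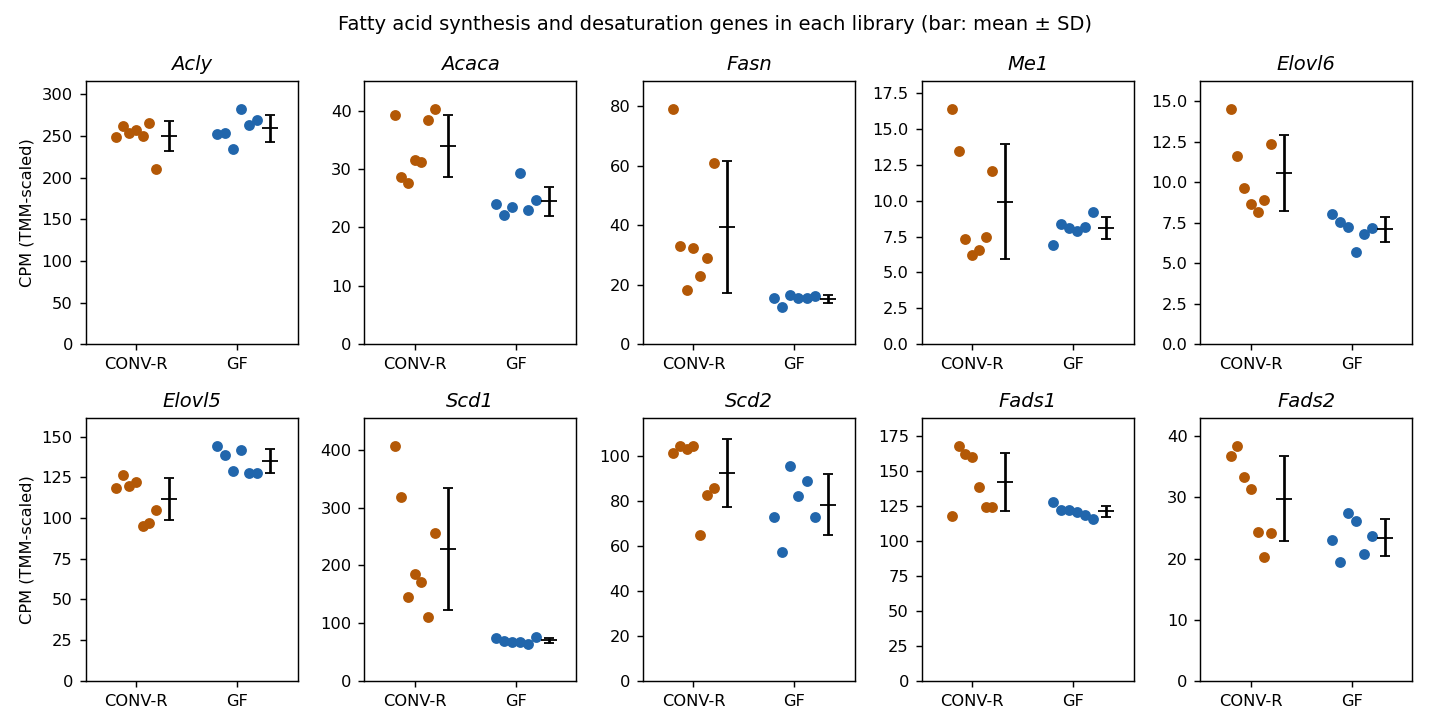
Level of each gene in each library, in TMM-scaled CPM on a linear axis starting at 0, with 7 CONV-R libraries in orange and 6 GF libraries in blue; bars are mean ± SD. For Scd1, Fasn and Elovl6 all GF points lie below all CONV-R points, for Elovl5 all lie above, and the CONV-R points of Scd1 and Fasn spread far more than the GF points.

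Fasn, the synthase that makes palmitate, was at 78.9, 32.9, 18.3, 32.4, 23.0, 29.0 and 60.9 CPM in CONV-R 1 to 7 and at 15.4, 12.6, 16.5, 15.4, 15.5 and 16.03 CPM in GF 8 to 13. CONV-R 1 and 7 were far above the other 5 CONV-R libraries, and CONV-R 3 was close to the GF range. Mean levels were 39.3 ± 22.1 CPM (SD, n = 7) and 15.3 ± 1.36 (SD, n = 6), a log2 fold change of -1.37 ± 0.30 (SE; adjusted p = 0.00646, edgeR), or 2.58-fold lower. Without CONV-R 1 and 7, an alternative added after seeing the data, the fold change was -0.83 and still passed. The Fasn gene lies at chr11:120805846-120824547 on the minus strand of GRCm38.

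Acaca, the carboxylase ahead of Fasn, had a GF range of 22.2 to 29.3 CPM (median 23.8) and a CONV-R range of 27.6 to 40.2 CPM (median 31.5). Of the 6 GF libraries 5 lay below every CONV-R library, and GF 11, at 29.3 CPM, overlapped the CONV-R range. The log2 fold change was -0.47 ± 0.10 (SE; adjusted p = 0.00704, edgeR), and the mean fell from 33.9 ± 5.30 CPM (SD, n = 7) to 24.5 ± 2.50 (SD, n = 6). Within GRCm38 an opposite-strand gene overlaps each of Acaca, Elovl6 and Me1, and whether the counting used strand is not given in the sources used here.

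Acly, which provides the acetyl-CoA, did not pass the test. Its level was 249.6 ± 18.2 CPM (SD, n = 7) in CONV-R and 259.2 ± 16.3 (SD, n = 6) in GF. The log2 fold change was 0.05, with a 95% interval of -0.08 to 0.19 and an adjusted p of 0.562 by edgeR. Me1, the cytosolic malic enzyme, ranged over 6.24 to 16.4 CPM in CONV-R libraries and 6.90 to 9.24 in GF libraries, with an interval of -0.77 to 0.19 around a log2 fold change of -0.29 (adjusted p = 0.345, edgeR). The highest Me1 values, 16.4, 13.5 and 12.1 CPM, were in CONV-R 1, 2 and 7.

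Among the elongases, Elovl6 and Elovl5 changed in opposite directions. Elovl6, which lengthens palmitate, was at 14.5, 11.6, 9.61, 8.63, 8.18, 8.88 and 12.4 CPM in CONV-R 1 to 7 and at 5.70 to 8.04 CPM in GF (median 7.20), with no overlap. Its log2 fold change was -0.57 ± 0.14 (SE; adjusted p = 0.0126, edgeR). Elovl5, which lengthens polyunsaturated fatty acids, had a median of 118 CPM (94.97 to 126) in CONV-R and 134 CPM (128 to 144) in GF. Every GF library of Elovl5 was above every CONV-R library, and the log2 fold change was 0.27 ± 0.08 (SE; adjusted p = 0.0213, edgeR). Leaving out GF library 8 or 9 ended this call, with adjusted p = 0.0601 and 0.0581.

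The desaturases other than Scd1 did not pass. Scd2 was at 92.5 ± 15.2 CPM in CONV-R (SD, n = 7) and 78.4 ± 13.5 in GF (SD, n = 6), with a log2 fold change of -0.24 and a 95% interval of -0.52 to 0.04 (adjusted p = 0.192, edgeR). Fads1, the desaturase whose product is arachidonic acid, was at 142 ± 21.0 and 121 ± 4.11 CPM, a log2 fold change of -0.23 with an interval of -0.42 to -0.04 (adjusted p = 0.0714, edgeR). Fads2, its upstream partner, was at 29.8 ± 6.94 and 23.4 ± 3.06 CPM, a log2 fold change of -0.35 with an interval of -0.67 to -0.04 (adjusted p = 0.0904, edgeR). CONV-R 2, 3 and 4 held the 3 highest Fads1 values, 168, 162 and 160 CPM, while CONV-R 1, with the highest hepatocyte sum, was at 118 CPM, within the GF range of 115.7 to 128. Fads1 passed without CONV-R library 1, 6 or 7 (adjusted p = 0.0235, 0.0483 and 0.0499, edgeR) and Fads2 without CONV-R library 6 (0.0328). DESeq2 called Fads1 (adjusted p = 0.0357), and limma-voom called Fads1 and Fads2 (0.00574 and 0.0117).

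Both neighbouring pairs of desaturases lie on chromosome 19, Fads1 and Fads2 at chr19:10182888-10196877 and chr19:10062765-10101746, 81.1 kb apart, and Scd1 and Scd2 at chr19:44394455-44407879 and chr19:44293674-44306864, 87.6 kb apart. Ratios of counts within a library do not depend on how libraries are scaled. The Scd1/Scd2 ratio was 1.34 to 4.01 in CONV-R and 0.715 to 1.21 in GF, a log2 difference of -1.34 with an exact two-sided permutation p of 0.00175 over 1716 splits, and 0.00292 adjusted over 5 ratios. Elovl6/Elovl5 differed by -0.83 (exact permutation p = 0.00117, adjusted 0.00292) and Fasn/Acly by -1.25 (exact permutation p = 0.00175, adjusted 0.00292). Fasn/Acaca differed by -0.74 (exact permutation p = 0.0105, adjusted 0.0131), whereas Fads2/Fads1 differed by -0.11 (exact permutation p = 0.505). Within libraries Scd1 changed unequally to Scd2, and Fasn to Acly and Acaca. A ratio can still depend on which cells a library holds. The highest Scd1/Scd2 (4.01), Fasn/Acaca (2.01) and Fasn/Acly (0.317) were in CONV-R 1, which had the highest hepatocyte sum. The part of the cell content in the ratios was not tested.

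Library names hold a code number of unstated meaning: CONV-R 1 to 4 have number 10, CONV-R 5 to 7 number 9, and the GF libraries number 6. The groups have no code number in common, so code and housing cannot be told apart. With only the 4 CONV-R libraries of number 10, 7 of the 10 genes were lower and 0 were higher, where 7.05% of all genes tested were lower and 6.89% higher. The 3 that were added were Scd2, Fads1 and Fads2 (log2 fold changes of -0.40, -0.33 and -0.58), and Elovl5 was at 0.15 (adjusted p = 0.0857, edgeR). With only CONV-R 5 to 7 of number 9, 4 genes were lower and 1 higher, where 17.9% of all genes tested were lower and 16.2% higher. There Scd1 was at -1.38, Fasn at -1.32 and Elovl5 at 0.44, while Scd2 was at 0.00017 and Fads2 at 0.012. Scd1, Fasn, Acaca and Elovl6 were lower with either set.

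**Figure D2:**
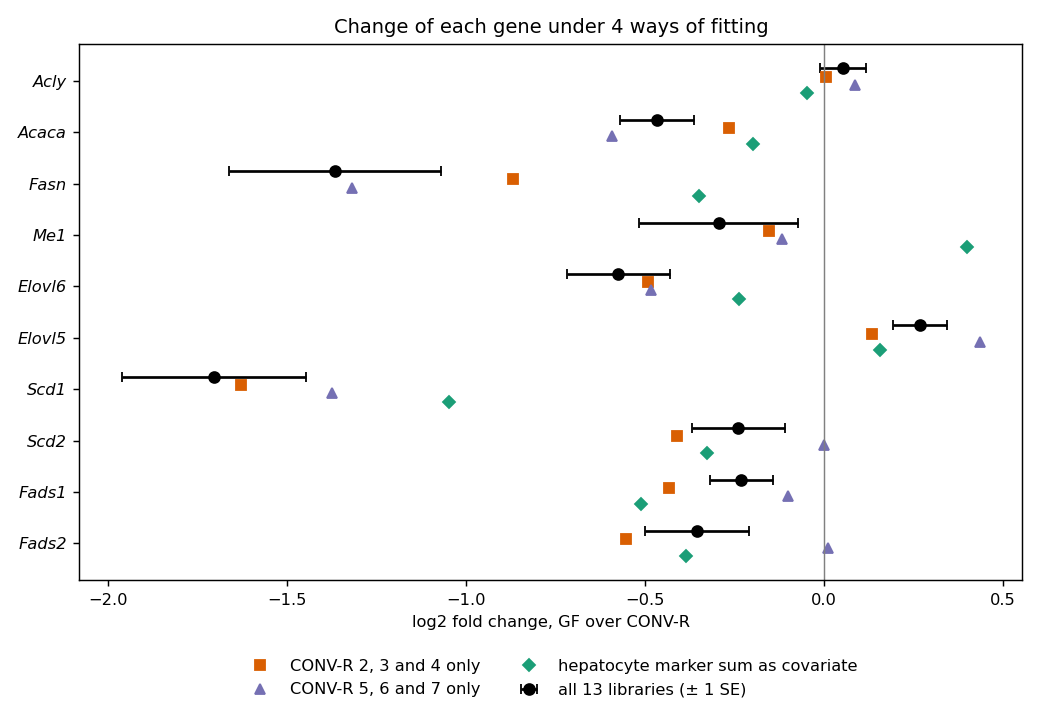
Log2 fold change (GF over CONV-R) of each gene, with black points and bars for all 13 libraries ± 1 SE, squares for CONV-R 2, 3 and 4 only, triangles for CONV-R 5 to 7 only, and diamonds for the fit with the hepatocyte marker sum as a covariate. Scd1 lies left of 0 in every fit, at -1.05 to -1.70, and Fasn moves from -1.37 to -0.35 with the covariate.

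Hepatocyte markers moved with the same groups as the 4 lower genes. As CPM of library totals, their sums did not overlap between groups (GF at most 1618 CPM, CONV-R at least 1705). Neutrophil and monocyte sums on this scale did not overlap either (GF at most 259 CPM, CONV-R at least 316). The highest GF hepatocyte sum was in GF 13 (TMM factor 0.966) and the lowest CONV-R sum in CONV-R 4 (1.02). With TMM factors these hepatocyte sums would be nearly equal, leaving no gap between the groups. The covariates were sums without TMM factors. With the hepatocyte or the neutrophil and monocyte covariate, the group and the covariate can hardly be told apart, so a lost call has no single reading. With the log2 hepatocyte marker sum as a covariate, 1 of the 10 genes was lower, Fads1 (-0.51, adjusted p = 0.0105, edgeR), and 0 were higher, while the calls over all tested genes fell to 1.85% lower and 1.97% higher. Scd1 was then at -1.05 (adjusted p = 0.0894) and Fasn at -0.35 (0.581), with Acaca at -0.20 (0.481), Elovl6 at -0.24 (0.563) and Elovl5 at 0.16 (0.517). The neutrophil and monocyte sum as a covariate left Scd1 lower at -1.97 (adjusted p = 0.0250) and called Fads2 at -0.79 (0.0451), while Fasn was at -1.20 (0.185), Elovl6 at -0.56 (0.222) and Acaca at -0.23 (0.449). In that fit 0.963% of all tested genes were lower and 1.26% higher. With the Kupffer cell sum as a covariate 5 of the 10 genes were lower, Scd1 (-1.68, adjusted p = 0.00458, edgeR), Fasn (-1.13, 0.0491), Acaca (-0.34, 0.0431), Elovl6 (-0.56, 0.0491) and Fads1 (-0.35, 0.00775), where 4.80% of all tested genes were lower and 5.66% higher. The part of hepatocytes, neutrophils, monocytes and Kupffer cells in the lower levels was not tested.

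CONV-R library 4, picked after its values were seen, had the lowest hepatocyte sum of its group, at 1705 CPM, 1.05 times the highest GF sum, and a Kupffer sum within the GF range. In it Scd1 was 2.43 times, Fasn 1.96 times, Fads1 1.25 times, Fads2 1.14 times, Scd2 1.10 times, Acaca 1.08 times and Elovl6 1.07 times the highest GF value, Elovl5 was 0.956 times the lowest GF value and Me1 was below all GF values. Its neutrophil and monocyte sum was 1.22 times, and its B and plasma cell sum 2.15 times, the highest GF sum. Its cholangiocyte sum, 114 CPM, was below the GF range of 142 to 367 CPM. Its liver endothelial sum, 48483 CPM, was below the GF range of 49106 to 51934 CPM. Unlike the gene levels, these marker sums carry no TMM factors, which were 1.02 in CONV-R 4 and 0.937 to 0.983 in GF. Relative to GF, the marker sums of CONV-R 4 would be lower with them. With CONV-R 2, 3 and 4 alone, also chosen after seeing the data, Scd1 was at -1.63, Fasn at -0.87 and Elovl6 at -0.49, and Scd2, Fads1 and Fads2 passed as well, while Acaca was at -0.26 (adjusted p = 0.0513, edgeR) and Elovl5 at 0.13 (0.112). In that fit 6 of the 10 genes were lower and 0 higher, where 9.55% of all genes tested were lower and 9.47% higher.

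**Figure D3:**
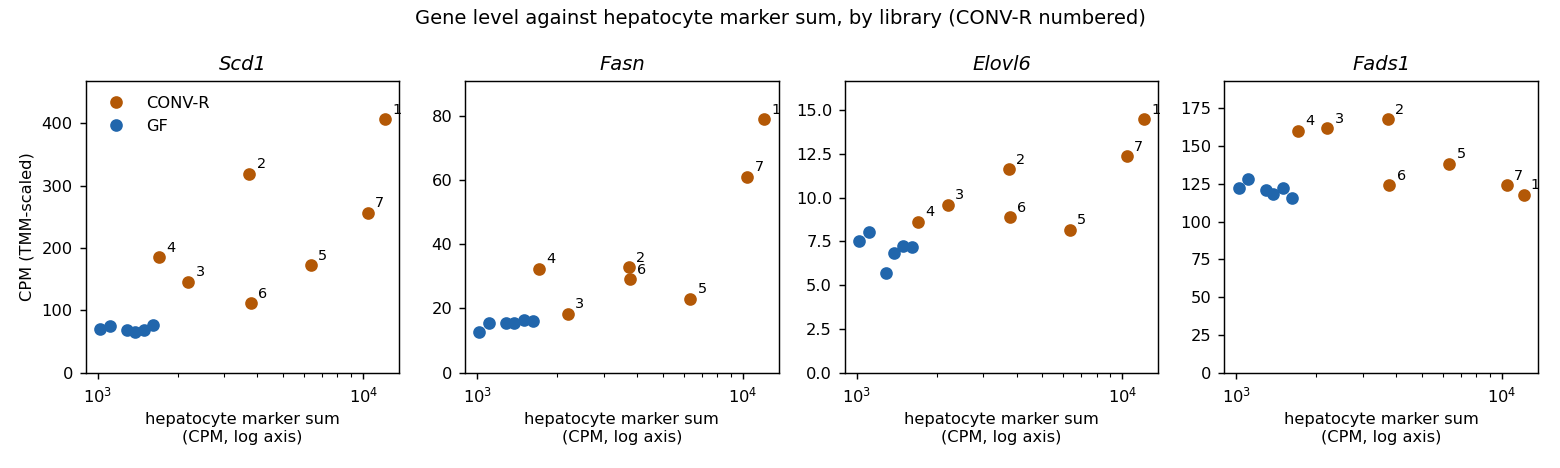
Level of Scd1, Fasn, Elovl6 and Fads1 in TMM-scaled CPM against the hepatocyte marker sum of the library. The sum is in CPM of library totals (log axis), with CONV-R libraries numbered and GF libraries in blue. CONV-R 4 sits beside the GF libraries on the horizontal axis and above them for all 4 genes, and Fads1 is low in CONV-R 1, 6 and 7, of which 6 has nearly the same hepatocyte sum as CONV-R 2, where Fads1 is highest.

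Per kilobase of exon (from GENCODE M21, which may differ from the annotation used for counting), the order of the levels differed between groups. In CONV-R the means were Acly 54.1, Scd1 47.2, Fads1 41.0, Elovl5 40.2, Scd2 17.0, Fads2 9.46, Fasn 3.91, Acaca 3.56, Me1 2.75 and Elovl6 1.72 CPM per kb. Neighbours in this order were in that order in only 3 to 5 of 7 libraries for Acly and Scd1, Scd1 and Fads1, Fads1 and Elovl5, Fasn and Acaca, and Acaca and Me1, and in 7 of 7 for the other 4 pairs. In GF, Scd1 was level with Scd2 (14.5 and 14.4 CPM per kb, Scd1 above in 3 of 6 libraries), Elovl5 was second at 48.5 after Acly at 56.2, and Fasn, at 1.52, stood below Acaca, at 2.57, and Me1, at 2.25, in all 6.

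The regulators of the pathway did not all move one way. Of 19 tested, 6 were lower and 3 higher, with a median of -0.17, where 12.7% of all tested genes were lower and 11.4% higher. Srebf1 (-0.42 ± 0.06 SE, adjusted p = 8.63e-04, edgeR), which encodes the lipogenic sterol regulatory element binding protein, fell from 77.0 ± 6.91 to 57.8 ± 2.99 CPM. Srebf2 (-0.69, adjusted p = 0.00609) and Insig1 (-0.60, 0.0179), an anchor of that protein in the endoplasmic reticulum, were lower too, as were Pparg, Ppargc1b and Mlxipl. Mlxipl, the carbohydrate response element binding protein, fell most, by 2.52 on the log2 scale (adjusted p = 0.00583), from 19.96 ± 18.8 CPM (SD, n = 7) to 3.46 ± 0.97 (SD, n = 6). Mlxip, its paralogue, rose by 1.07 ± 0.09 SE (adjusted p = 1.18e-05), from 284 ± 31.7 to 595 ± 60.4 CPM, and Mbtps1, a protease that cuts the Srebf proteins during their activation, rose by 0.38. Insig2 was the third higher gene, at 0.22. Nr1h3 had a log2 fold change of -0.61 that did not pass (adjusted p = 0.132) and changed sign with any of the 3 marker covariates, but passed without CONV-R library 4 (-0.74, adjusted p = 0.0463). With the hepatocyte covariate 2 of the 19 regulators were lower and 2 higher, and Mlxipl was at -0.26 (adjusted p = 0.765), Insig1 at -0.76 (0.107) and Mbtps1 at 0.22 (0.131), by edgeR. Mlxipl also missed the threshold with the Kupffer covariate (-1.95, 0.0563) and with the neutrophil and monocyte covariate (-1.73, 0.240).

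Of 12 genes that supply citrate, acetyl-CoA or NADPH, 5 were lower and 0 higher, with a median of -0.25. The lower genes were the citrate carrier Slc25a1 (-0.47), the acetyl-CoA synthetase Acss2 (-0.60), Idh1 (-0.26), the acetoacetyl-CoA synthetase Aacs (-0.33) and Pgd (-0.23). For this list and those below, the main fit called 12.7% of all tested genes lower and 11.4% higher. With the hepatocyte covariate 0 passed by edgeR, and 2 had an unadjusted p under 0.05. Of the 7 other carboxylase and mitochondrial synthesis genes tested 0 passed in either direction by edgeR's adjusted p, and Acacb, the carboxylase at the mitochondrion, was at -0.17 (0.335). The only one with an unadjusted p under 0.05 was Mecr, at -0.34, named after its value was seen, and DESeq2 and limma-voom also called 0. Library totals, CONV-R 5 to 7 only and CONV-R 2, 3 and 4 only each called 1 of the 7 lower. Of 10 other elongation genes 1 was higher, Elovl7 (0.95), and 3 were lower, Elovl2 (-1.61), Tecr (-0.35) and Hacd3 (-0.16). Elovl2 was at 0.015 with the hepatocyte covariate, and Elovl7 (0.60, adjusted p = 0.376) and Tecr (-0.15, 0.630) did not pass with it by edgeR. Of 7 other desaturation genes Cyb5r3 (0.28) was higher and Cyb5a (-0.27) lower, counts near the shares over all tested genes. The Cyb5r3 call held in 4 of 27 alternatives. Of the 13 fits that each left out 1 library, Hacd3 was called in 5, and Tecr in all but the one without GF library 9 (adjusted p = 0.0531, edgeR).

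**Figure D4:**
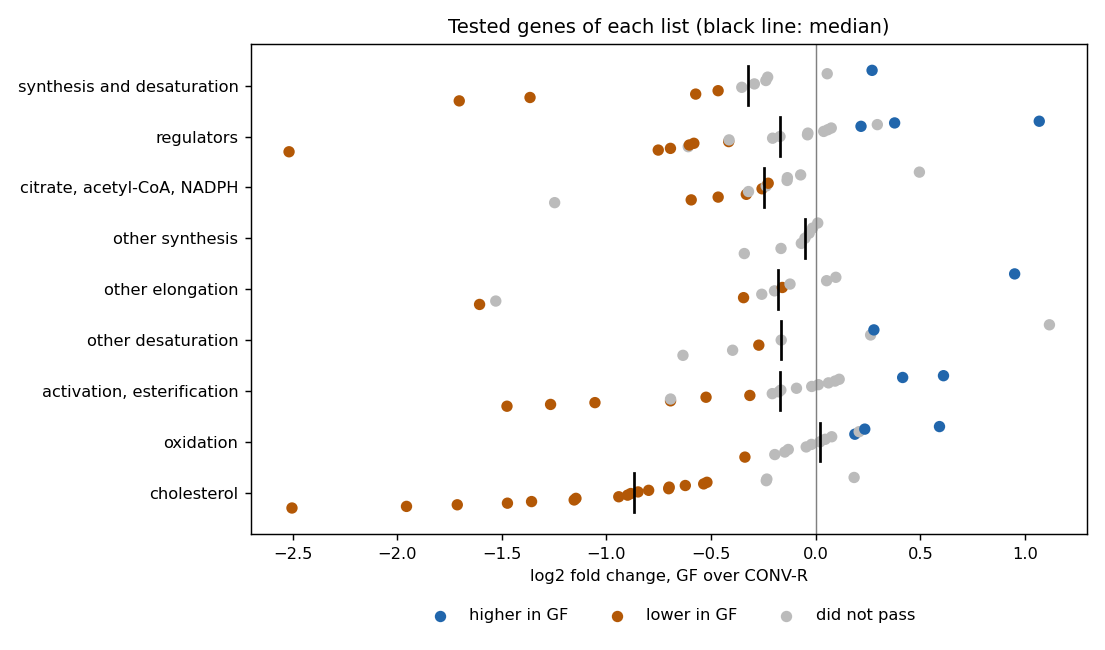
Log2 fold change (GF over CONV-R) of every tested gene in 9 lists, with blue points for genes higher in GF, orange for lower and grey for genes that did not pass, and a black line at each median. The cholesterol genes have the lowest median, -0.87, and the genes of synthesis and desaturation one of -0.32.

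The cholesterol genes had the lowest median of these lists: 17 of 20 were lower and 0 higher, with a median of -0.87. The synthesis enzymes Cyp51, Hsd17b7 and Msmo1 fell by 1.47, 0.94 and 0.85 on the log2 scale. These 3 kept their call under all 27 alternatives, as did Srebf1, Srebf2, Mlxip and Acsl3. With the hepatocyte covariate 6 of the 20 were lower. In the list of activation and esterification 6 of 18 were lower, among them Acsl3 (-0.52), Acsl1 (-1.27) and the acyltransferase Lpcat2 (-1.06), and 2 were higher, of which Lpin3 was at 0.61. With the hepatocyte covariate 1 of the 18 was lower and 2 were higher, with Acsl1 at 0.27, Lpcat2 at -0.089 (adjusted p = 0.911, edgeR) and Lpin3 at 0.13 (0.777). Lpcat2 and Lpin3 each kept their call in 21 of 27 alternatives. Among 13 oxidation genes 3 were higher, Cpt1a (0.59), Acadl (0.23) and Hadha (0.19), and Acads was lower (-0.34). The main fit called 11.4% of genes higher and 12.7% lower. None of these named genes passed with the hepatocyte covariate (Cpt1a 0.39, Acadl 0.18, Hadha 0.22, Acads 0.019). In that fit 3 other oxidation genes were higher and 0 lower, with a median of 0.23. With CONV-R 5 to 7 only, Cpt1a (adjusted p = 0.132, edgeR) and Acadl (0.139) did not pass, and 1 of the 13 was higher and 1 lower. With 1 library left out in turn, Acadl was called in 5 and Acads in 7 of 13 fits, and Cpt1a in 11, failing without GF library 9 or 11 (adjusted p = 0.0529 and 0.0522, edgeR). The lists were chosen with earlier results of these data known.

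After group means were subtracted, the 10 genes were compared across the 13 libraries in 45 pairs, with Pearson correlations of log2 CPM, a choice made after seeing the data. By 100000 permutations within groups 10 pairs had an unadjusted p under 0.05 and 0 an adjusted p under 0.05, with a lowest adjusted p of 0.125. The highest correlation was between Scd1 and Me1 (r = 0.85, permutation p = 0.0135; Spearman rho = 0.87, permutation p = 0.0136; r = 0.84 without the 2 libraries farthest from the median of Scd1, and 0.73 without CONV-R 1 and 7). Acaca and Fads1 went in opposite directions (r = -0.81, permutation p = 0.0139; rho = -0.77, permutation p = 0.0147; -0.88 without the 2 farthest libraries). Fads1 and Fads2 had r = 0.44 (permutation p = 0.235; rho = 0.41, permutation p = 0.246), which was 0.69 without the 2 farthest libraries and 0.76 without CONV-R 1 and 7. Without CONV-R 1 and 7 the correlations of Fasn fell to 0.35 with Elovl6, 0.51 with Scd1 and 0.48 with Me1, from 0.72, 0.74 and 0.76. These libraries share hepatocyte sums that vary across CONV-R, whose part in the correlations was not tested.

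**Figure D5:**
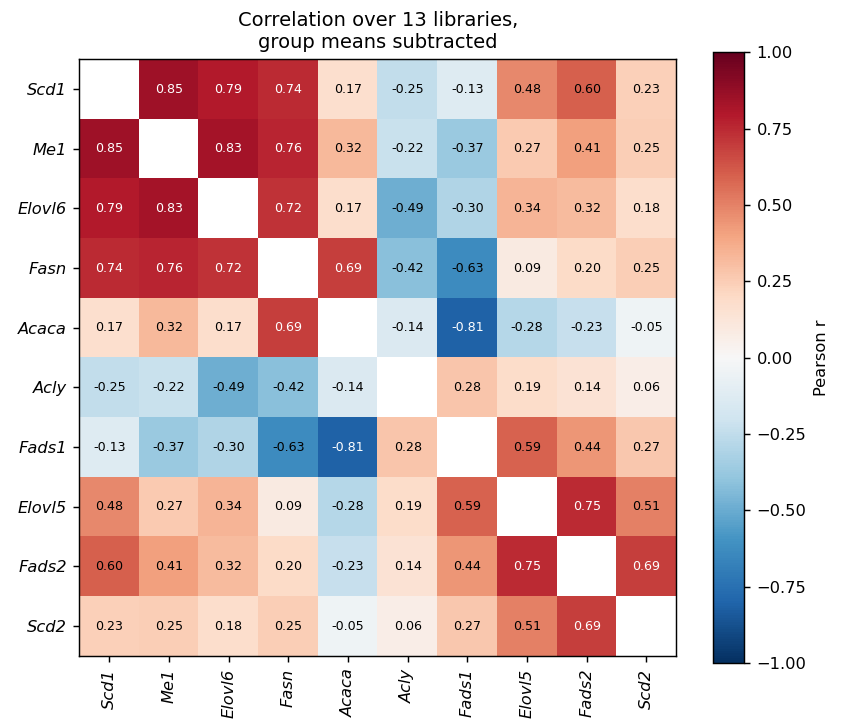
Pearson correlation between the log2 CPM of each pair of genes over 13 libraries after subtracting group means, red for positive and blue for negative. Scd1, Me1, Elovl6 and Fasn have positive values of 0.72 to 0.85 among themselves over all 13 libraries, and Acaca and Fads1 are at -0.81.

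Among 10854 tested genes of at least 5 CPM, the 3 most like each gene by the same measure are given as a description over 13 libraries. For Scd1 they were the cholesterol synthesis genes Cyp51 (r = 0.93) and Fdps (0.93) and the gene Ttc32 (0.92), and for Fasn they were Tonsl (0.97), Ralgps1 (0.95) and Tm7sf2 (0.94). For Fads1 they were Endou (0.97), Gas6 (0.95) and Mapk3 (0.95), for Me1 Cep170b (0.92), Slc2a2 (0.90) and Fdps (0.88), and for Elovl6 Ears2 (0.89), Aldh4a1 (0.88) and Inmt (0.86). For Acaca they were Cnnm4, Plekhg3 and Cks2 (0.90 to 0.92), for Acly Bysl, Lcmt1 and Ogdh (0.89 to 0.92), for Elovl5 Gm4944, Otud1 and Ppp3ca (0.88 to 0.92), for Fads2 Tmem106c, 2810002D19Rik and Fam73a (0.85 to 0.90) and for Scd2 Zfp395, Alcam and Ipp (0.84 to 0.86).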

How the data were processed

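The 13 libraries come from 1 table of whole-number counts per gene symbol, deposited by the authors. Per the labels' protocols, libraries were made with a stranded mRNA kit, and the build was mm10, with STAR 2.7.5a, featureCounts 2.0.1 (Subread), DESeq2 1.42.1 and FastQC 0.11.9, per the submitters' processing notes. Which annotation and strand setting were used, and whether genes were filtered, is not given in the sources used here. The table held 0 columns outside the series. Depth per group stands in the report, and every pair of libraries of a group differed by more than sampling noise (chi-square per degree of freedom at least 13.4).

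edgeR 4.0.16 in R 4.3.3 was run on the counts (filterByExpr, minimum count 10 and minimum total 15, TMM scaling, robust quasi-likelihood, threshold 0.05 after Benjamini-Hochberg adjustment over 13915 genes). The biological coefficient of variation was 0.264. The SE of a log2 fold change is its size over the square root of F. CPM of a gene is per TMM-scaled library, and a marker sum is CPM of the library total without TMM factors. Ratios add 0.5 to each count, and correlations use log2 CPM with 0.5 added to each CPM value. The test was tried on simulated counts for 13843 genes: 55.2% of genes changed 1.5-fold, 74.6% changed 2-fold and 97.0% changed 4-fold were called, and 3.21% of the calls were false.

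Alternatives were DESeq2 1.42.0, limma-voom 3.58.1, other scaling and filters, marker covariates, the code numbers, leaving out each library and 2 sets of CONV-R libraries chosen after seeing the data. The 10 genes and all lists were chosen with earlier results of these data known. Named genes are the 10, up to 4 past the threshold with the smallest p in each other list (or the most abundant where none passed), Srebf1, Srebf2, Mlxipl, Nr1h3, Insig1 and Acacb, and the 3 genes most like each of the 10. Of the genes this rule names, 1 is not reported here. Pparg, Ppargc1b, Insig2 and Pgd were named after their values were seen. The promoter motifs were chosen after earlier results were known, and TCACCCNA after the Fasn promoter was read. Promoters are RefSeq's on GRCm38.p6, gene positions GENCODE M21's on GRCm38.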

Additional observations from a re-analysis of the deposited data

Results flagged for a closer look

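In 90 groups of libraries, for the 45 values described, 7 had a single library far from the others of its group, where chance alone gives about 1 in 20, or 5%. Fasn was at 12.6 CPM in GF library 9, below the other GF libraries at 15.4 to 16.5. Acaca was at 29.3 CPM in GF library 11, above the others at 22.2 to 24.7, and the Elovl6/Elovl5 ratio in the same library was 0.0404, against 0.0534 to 0.0564. That library also stood apart in stellate cell and fibroblast markers, at 464 CPM against 51.9 to 99.1 in the other GF libraries, whose part in both values was not tested. Acly was at 210.7 CPM in CONV-R library 7, against 249 to 265 in the other CONV-R libraries. Slc25a1 was at 25.4 CPM in GF library 9 (others 19.2 to 21.1), Tecr at 102.1 in CONV-R library 1 (60.5 to 77.1) and Insig1 at 32.9 in GF library 12 (46.5 to 51.8).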

How the results depend on the processing

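Over 27 alternatives, Scd1, Fasn, Elovl6 and Acaca had a negative log2 fold change in all. The call was kept in 26 for Scd1, 25 for Fasn, 24 for Elovl6 and 24 for Acaca. With the hepatocyte covariate none of the 4 passed, and with the neutrophil and monocyte covariate only Scd1 did. Acaca also missed the threshold with CONV-R 2 to 4 only, and Elovl6 at the threshold of 0.01. The count of lower genes among the 10 was 4 in the main fit, 7 with code number 10 only, 1 with the hepatocyte covariate and 2 with the neutrophil and monocyte covariate, 5 with the Kupffer covariate, and 4 to 6 when each library was left out. The count of higher genes was 1, and 0 with library totals, code number 10, any of the 3 covariates, CONV-R 2 to 4 only and a threshold of 0.01, and 0 to 1 over the leave-one-out fits. Over all genes, 1764 lower and 1593 higher became 2773 and 971 with library totals, 1000 and 978 with code number 10, 257 and 274 with the hepatocyte, 668 and 787 with the Kupffer and 134 and 176 with the neutrophil and monocyte covariate, 2526 and 2281 with code number 9, and 579 and 629 at the stricter threshold. Leaving out 1 library gave 1208 to 1972 lower and 1013 to 1765 higher genes, 1013 without GF library 9. DESeq2 called 2210 and 1891. Library totals shift the median of all genes to -0.11. The cause of these changes was not tested. Signs turned for Acly (-0.042 with library totals, -0.045 with the hepatocyte and -0.057 with the neutrophil and monocyte covariate), Scd2 (0.00017) and Fads2 (0.012) with code number 9, Me1 (0.40), Elovl2 (0.015), Acsl1 (0.27) and Acads (0.019) with the hepatocyte covariate, and Nr1h3 (0.49 with the hepatocyte, 0.13 with the Kupffer and 0.17 with the neutrophil and monocyte covariate, and 0.36 with CONV-R 2 to 4, adjusted p = 0.0353 by edgeR). The log2 difference of the Fads2/Fads1 ratio was 0.11 with code number 9. No paired analysis was possible because the groups share no replicate numbers. At these depths, with genes drawn independently and the same spread in both groups, the simulation called 55.2% of 1.5-fold changes.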
